A study of Mus musculus with 6 samples.

Results

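The genes of the RNA polymerase I and III machinery were examined in whole mouse brain lacking TRMT1L. The members were the 42 genes of a list of symbols, out of 55450 annotated genes, and each symbol matched 1 gene of GENCODE M21. They comprise 3 subunits found in RNA polymerase I (Pol I) alone, 7 subunits that Pol I and RNA polymerase III (Pol III) share, 9 Pol III subunits, 7 Pol I factors and 16 Pol III factors. Long total RNA was sequenced from 3 knockout (KO) and 3 wild-type (WT) brains, described as biological triplicates. Molecules under 200 bp had been removed from the RNA before library preparation. KO animals lack TRMT1L, a protein related to an enzyme that methylates guanosine in transfer RNA (tRNA). The labels give no strain, age or sex and do not say how the allele was made.

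Pol I works in the nucleolus and makes the precursor of the large ribosomal RNAs (rRNA). Pol III makes tRNAs, 5S rRNA and other short RNAs such as U6 and 7SK, so it supplies the substrates that tRNA-modifying enzymes act on. Each polymerase has its own largest subunits and its own initiation factors, while a set of smaller subunits is common to both, and part of that set to RNA polymerase II (Pol II) as well. Post-mitotic neurons still need both enzymes to maintain ribosomes and tRNA pools. The comparison between genotypes asks whether mRNA levels of this machinery differed when TRMT1L was absent.

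Library depth was similar across the 6 brains, with between 31201119 and 36145961 counts in genes on the strand used. The knockout was visible in every library, since Trmt1l had 1279, 1034 and 1158 counts in the WT brains against 93, 101 and 106 counts in the KO brains. Values per library are given in the order 1, 2, 3 throughout. Markers of neurons, astrocytes, oligodendrocytes and microglia were present in all 6 libraries, and the 5 neuron markers together lay between 3729 and 3994 CPM (counts per 1000000 counts in genes). The pituitary markers Gh, Prl and Pomc together stayed between 0.415 and 2.13 CPM, with Prl at 0 in all 6, and the liver markers Alb, Apoa2 and Serpina1a between 0.201 and 0.478 CPM. Summed oligodendrocyte markers were 3308 to 3712 CPM in WT and 2812 to 3376 CPM in KO, and summed choroid plexus markers were 292 to 344 CPM in WT and 350 to 420 CPM in KO. Summed blood markers ranged from 88.6 to 222 CPM, with the highest value in KO library 1. The part of these cell type differences in the results below was not tested. In bulk tissue, fewer cells of a type and less RNA per cell cannot be told apart.

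All 42 members were expressed in brain. The lowest count of a member in any library was 137, for Polr2k, and the highest was 8180, for Gtf3c1, so every member passed the filter on low counts. Levels of different genes were compared on a length-scaled measure, TPM, here counts per kilobase of merged exons scaled to a total of 1000000 in each library. On this scale the members spanned 5.10 TPM for Polr1e to 70.3 TPM for Gtf3c1 (means over 6 libraries). The 3 highest were Gtf3c1 at 70.3 ± 2.66 TPM, Ubtf at 66.0 ± 3.74 TPM and Rrn3 at 61.7 ± 1.61 TPM (SD over 6 libraries). Gtf3c1 lay above Ubtf within each of the 6 libraries, although their ranges over libraries overlapped. The next member, Polr3gl at 43.7 ± 2.25 TPM, lay below all 3. Its place as the next member holds for merged exons as length and depends on that choice. Polr3gl has 1597 bases of merged exons and a longest transcript of 1427, whereas Brf1 has 7788 and 3280. At the other end, Polr3g had 5.93 ± 0.732 TPM and Polr1e 5.10 ± 0.427 TPM, below Taf1d at 10.4 ± 0.394 TPM. Polr3g lay above Polr1e within each of the 6 libraries, and their ranges overlapped.

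**Figure D1:**
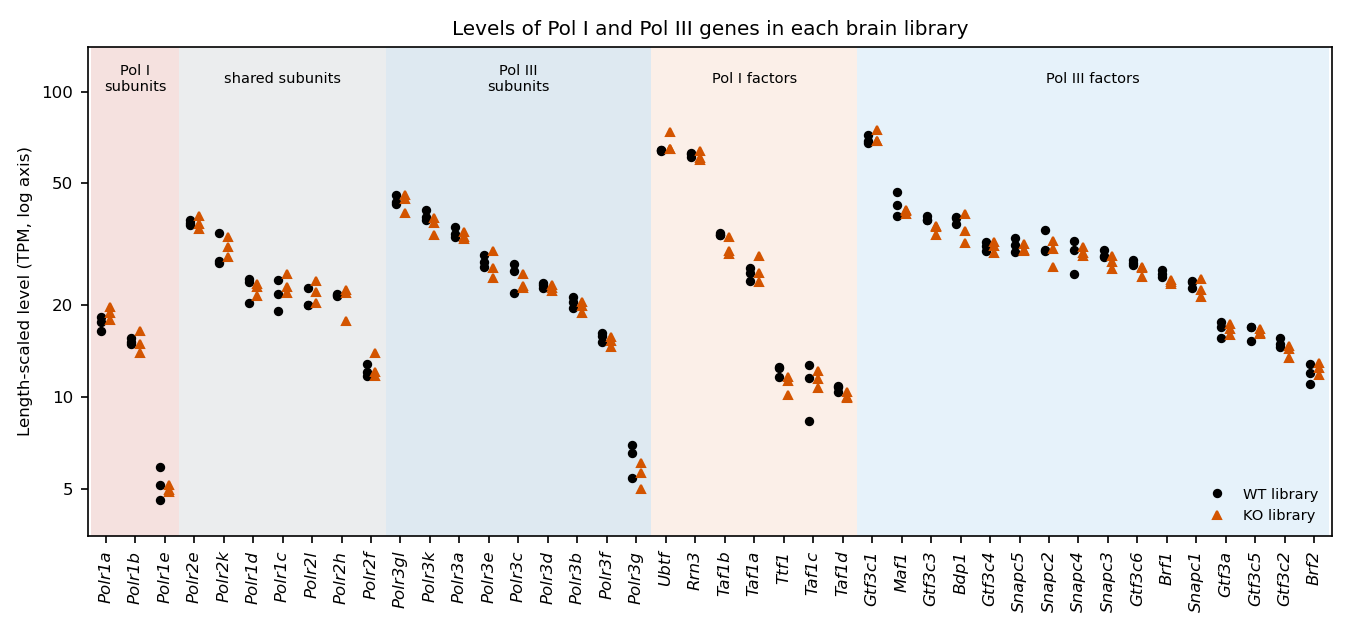
Length-scaled level in TPM (log axis) of each member in the 3 WT libraries (circles) and 3 KO libraries (triangles), grouped by role and ordered by mean. Gtf3c1, Ubtf and Rrn3 lie above 60 TPM on average, Polr1e and Polr3g at 5.10 and 5.93 TPM.

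The Pol I-specific subunits had the lowest median level of the 5 groups, 15.2 ± 0.352 TPM in WT (SD over 3 libraries). Medians in WT were 22.1 ± 0.641 TPM for shared subunits, 25.4 ± 1.95 TPM for Pol III subunits, 25.3 ± 1.23 TPM for Pol I factors and 29.5 ± 1.04 TPM for Pol III factors. The order of those 4 groups depended on how gene length was defined. With the longest transcript in place of merged exons, WT medians became 27.9, 27.0, 32.6 and 27.8 TPM respectively, while the Pol I-specific subunits stayed lowest at 17.7 TPM. TPM was not used to compare genotypes, because the 7SK gene Rn7sk alone held 15.7% of the scale in WT and 18.0% in KO. Genotypes were compared on CPM scaled with TMM factors, a normalization that sets aside genes with extreme ratios.

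Between genotypes, 0 of the 42 members passed. The threshold was 0.05 on p-values from the edgeR quasi-likelihood test, adjusted over every gene by Benjamini and Hochberg. Of all 21237 genes tested, 2 passed, or 0.00942%, and both were outside the list. Adjusted p-values of the members lay between 0.576 and 0.996. Without adjustment, 2 members were higher in KO at a p-value under 0.05, Polr1a and Ubtf, and 0 were lower. That is 4.76% of the members, against 4.54% of all genes tested that were higher and 3.38% that were lower at the same limit, so the members' share was near the background. Among tested protein-coding genes, 5.92% were higher.

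The intervals bound the differences. The median log2 fold change of the members, KO over WT, was 0.028, beside 0.00013 for all genes tested and 0.015 for tested protein-coding genes. In all, 28 members had a positive and 14 a negative log2 fold change. The positive share was 66.7%, against 50.05% of all genes tested and 55.5% of tested protein-coding genes. Values ranged from -0.12 for Polr3g to 0.18 for Polr1a. The 95% interval of a single member, not adjusted for the number of members, lay within ±0.5 on the log2 scale for all 42 and within ±0.25 for 31. The outermost bounds were 0.42 for Taf1c and -0.41 for Polr3g. The same test was run on counts simulated at the depth and spread of these libraries, with changed genes drawn from all 21237 genes, whatever their count. It recovered 3.5% of genes changed by 0.25 and 50% of those changed by 0.5 on the log2 scale. Most genes with a change of the smaller size were thus missed. Recovery among the members alone was not simulated.

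**Figure D2:**
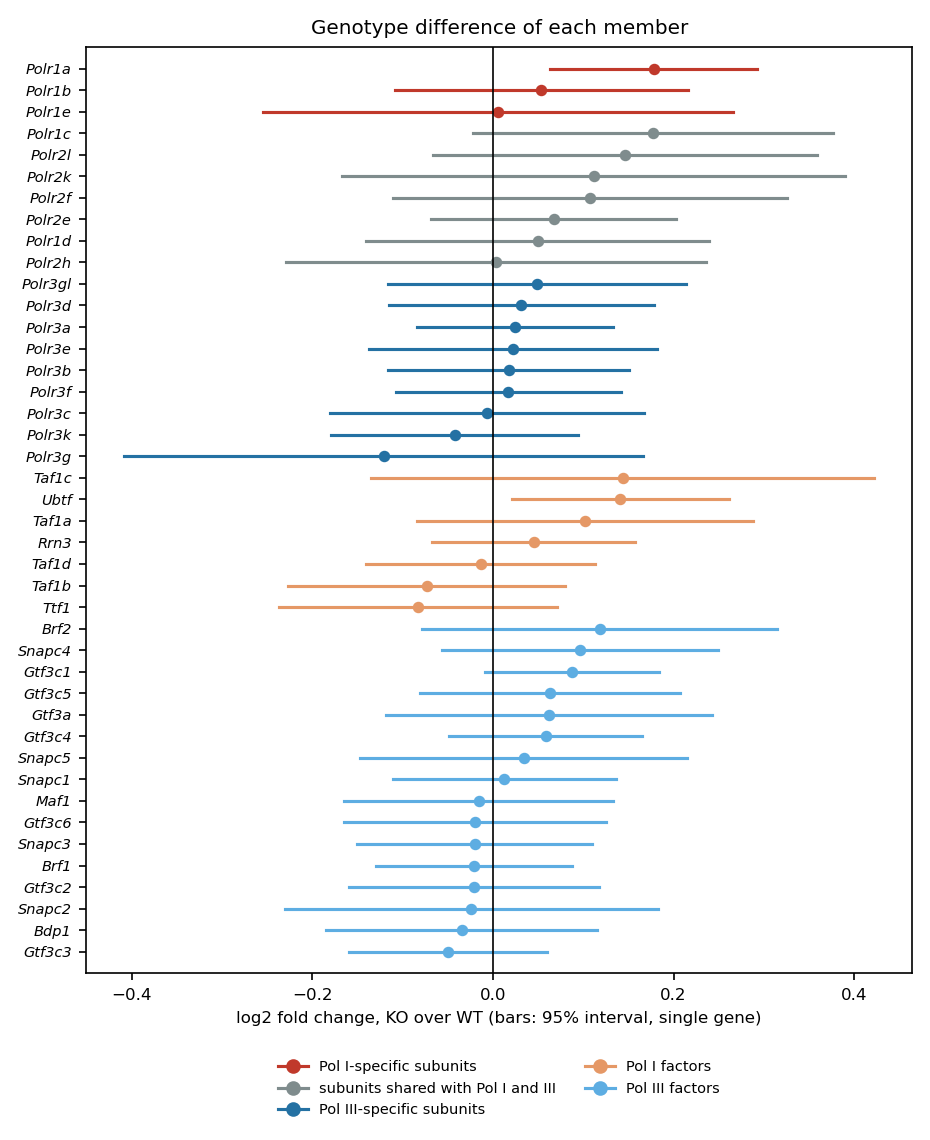
Log2 fold change of each member, KO over WT (points), with the 95% interval of the single gene (bars), coloured by role. Every bar lies within ±0.5, and those of Polr1a and Ubtf lie above 0.

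By group, the median log2 fold change was 0.054 for Pol I-specific subunits, 0.11 for shared subunits, 0.017 for Pol III subunits, 0.045 for Pol I factors and -0.0017 for Pol III factors. All 7 shared subunits and all 3 Pol I-specific subunits had a positive value, as did 6 of 9 Pol III subunits, 4 of 7 Pol I factors and 8 of 16 Pol III factors. Differences between groups of members were not tested. Leaving out 1 library moved these medians. The Pol I-specific subunits had 0.022 without WT library 2 and 0.11 without KO library 1. The shared subunits had 0.048 without WT library 2, the Pol I factors 0.0021 without WT library 3 and the Pol III subunits -0.0022 without KO library 1, while the Pol III factors lay between 0.012 and 0.035 in all 6 such fits. For shared subunits the median deviation from the mean of 6 libraries, in log2 CPM, had values of 0.0049, -0.073 and -0.078 for WT, against 0.044, 0.089 and -0.027 for KO. KO library 3 thus lay below WT library 1.

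Polr1a (chromosome 6, 71909053 to 71984935 on the plus strand of GRCm38) encodes the largest, catalytic subunit of Pol I. It had 53.8, 54.2 and 51.4 CPM in WT and 62.6, 60.1 and 57.7 CPM in KO. Every KO library lay above every WT library. The log2 fold change was 0.18 ± 0.0523 (SE; adjusted p = 0.576, edgeR), the smallest adjusted p-value among the members, with a 95% interval from 0.063 to 0.29. Leaving out 1 library at a time, the log2 fold change stayed between 0.15 and 0.21.

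Polr1b, the second-largest Pol I subunit, had 23.3, 21.6 and 23.2 CPM in WT and 21.6, 25.6 and 23.5 CPM in KO. The groups overlapped, and the log2 fold change was 0.054 ± 0.0740 (SE; adjusted p = 0.881, edgeR). Polr1e, a Pol I-specific peripheral subunit, was the lowest member per length (5.10 TPM), at 4.74 to 5.91 CPM in WT and 5.11 to 5.45 CPM in KO.

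Among shared subunits, Polr1c had the smallest p-value. This subunit belongs to the assembly platform of Pol I and Pol III and had 12.8, 13.7 and 11.5 CPM in WT and 13.4, 15.5 and 14.2 CPM in KO. KO library 1 lay below WT library 2, so the groups overlapped. Its log2 fold change was 0.18 ± 0.0911 (SE; adjusted p = 0.655, edgeR), the same size as that of Polr1a at a lower count and with a wider interval, -0.022 to 0.38. It was 0.11 without WT library 3. Polr2l, a small subunit of all 3 polymerases, had 8.52, 9.44 and 8.69 CPM in WT and 8.98, 10.6 and 9.90 CPM in KO. The groups overlapped, at a log2 fold change of 0.15 ± 0.0972 (SE; adjusted p = 0.735, edgeR), which was 0.089 without KO library 2. Polr1d, the partner of Polr1c in the assembly platform, overlapped fully, at 15.5 to 19.1 CPM in WT and 17.8 to 19.0 CPM in KO. The remaining subunits of all 3 polymerases, Polr2e, Polr2f, Polr2h and Polr2k, had log2 fold changes between 0.0036 and 0.11 and overlapping groups. Their levels over 6 libraries were 37.2, 12.4, 21.1 and 30.5 TPM respectively.

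Among Pol III subunits the highest log2 fold change was 0.049. Polr3a, the largest, catalytic subunit, had 51.5, 52.8 and 51.5 CPM in WT and 51.1, 54.1 and 53.2 CPM in KO. These values interleaved, and the log2 fold change was 0.024 ± 0.0496 (SE; adjusted p = 0.929, edgeR), with an interval from -0.084 to 0.13. Polr3b, the second-largest subunit, ranged from 26.5 to 28.4 CPM in WT and from 26.6 to 28.8 CPM in KO. Polr3k, a small subunit tied to transcript cleavage and termination, had 33.1, 30.5 and 31.2 CPM in WT and 32.1, 31.04 and 28.9 CPM in KO, a log2 fold change of -0.042 ± 0.0624 (SE; adjusted p = 0.889, edgeR). Polr3c and Polr3f, which with an RPC7 subunit form the Pol III subcomplex that contacts initiation factors, had log2 fold changes of -0.0066 and 0.017. Polr3d and Polr3e, a peripheral pair, had 0.031 and 0.022. Levels over 6 libraries were 24.3 TPM for Polr3c, 15.4 TPM for Polr3f, 23.0 TPM for Polr3d and 27.4 TPM for Polr3e.

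**Figure D3:**
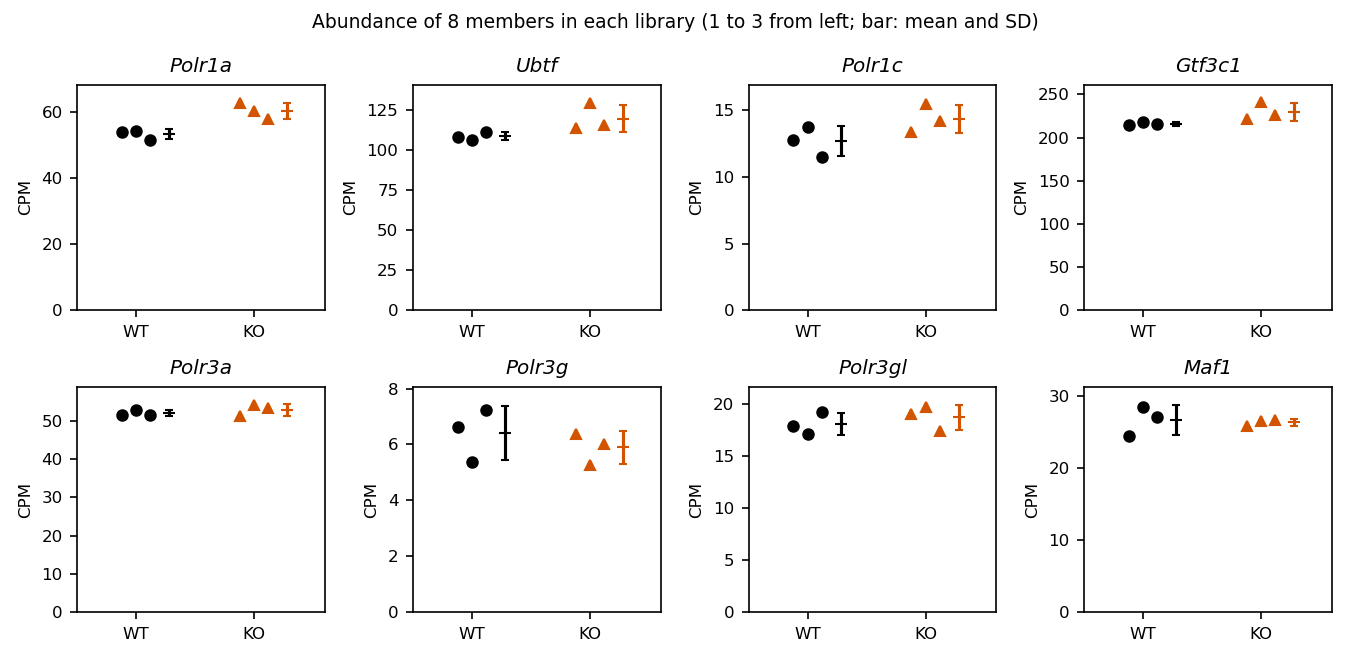
Abundance in CPM (axis from 0) of 8 members in WT libraries 1 to 3 (circles) and KO libraries 1 to 3 (triangles), with the mean and SD of each group. The groups do not overlap for Polr1a, Ubtf and Gtf3c1 and overlap for Polr1c, Polr3a, Polr3g, Polr3gl and Maf1.

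Polr3g and Polr3gl encode alternative forms of the RPC7 subunit. Polr3g is known for expression in stem and dividing cells and Polr3gl for expression in differentiated tissue. Polr3g had 6.62, 5.36 and 7.23 CPM in WT and 6.39, 5.26 and 6.03 CPM in KO. Its log2 fold change was -0.12 ± 0.131 (SE; adjusted p = 0.844, edgeR), and the groups overlapped. Leaving out 1 library gave values from -0.23 without WT library 2 to -0.026 without WT library 3. Polr3gl had 17.9, 17.2 and 19.3 CPM in WT and 19.1, 19.7 and 17.4 CPM in KO, a log2 fold change of 0.049 ± 0.0753 (SE; adjusted p = 0.897, edgeR). Per exon length, Polr3g stood at 0.150, 0.127 and 0.152 of the Polr3gl level in WT and at 0.136, 0.108 and 0.141 in KO. Polr3g therefore made up 12.5% ± 1.10 of the 2 paralogs in WT and 11.4% ± 1.38 in KO (SD over 3 libraries), and these ranges overlapped.

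The sequences upstream of Polr3g and Polr3gl are shown because these paralogs code for alternative forms of a single subunit. Those of Taf1a and Rrn3 are shown because Taf1a holds 3 matches of the ETS core and Rrn3 holds 2 of the E-box, while every other member found holds at most 1 of either. They are the 250 bases before the start site in RefSeq, build GRCm38.p6, written on the strand of the gene. Polr3g lies at chr13:81711014-81711263 on the minus strand, Polr3gl at chr3:96594182-96594431 on the minus strand, Taf1a at chr1:183388735-183388984 on the plus strand and Rrn3 at chr16:13780449-13780698 on the plus strand. Capitals mark every match, on either strand, of the E-box CACGTG, the ETS core CCGGAAG and the GC box GGGCGG.
Polr3g: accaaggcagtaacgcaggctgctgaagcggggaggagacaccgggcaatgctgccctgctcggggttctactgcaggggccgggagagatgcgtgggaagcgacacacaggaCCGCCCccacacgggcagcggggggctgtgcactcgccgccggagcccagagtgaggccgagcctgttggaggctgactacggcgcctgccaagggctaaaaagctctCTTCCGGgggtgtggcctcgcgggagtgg
Polr3gl: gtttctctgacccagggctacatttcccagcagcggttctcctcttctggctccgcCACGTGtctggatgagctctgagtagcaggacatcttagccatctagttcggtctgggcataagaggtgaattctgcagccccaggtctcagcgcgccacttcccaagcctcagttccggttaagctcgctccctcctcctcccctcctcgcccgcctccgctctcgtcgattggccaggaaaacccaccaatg
Taf1a: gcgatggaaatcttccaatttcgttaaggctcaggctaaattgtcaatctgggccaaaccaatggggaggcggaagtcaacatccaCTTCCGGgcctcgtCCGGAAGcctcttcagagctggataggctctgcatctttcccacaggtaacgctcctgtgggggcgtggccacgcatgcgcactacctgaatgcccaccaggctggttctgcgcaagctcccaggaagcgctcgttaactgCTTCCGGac
Rrn3: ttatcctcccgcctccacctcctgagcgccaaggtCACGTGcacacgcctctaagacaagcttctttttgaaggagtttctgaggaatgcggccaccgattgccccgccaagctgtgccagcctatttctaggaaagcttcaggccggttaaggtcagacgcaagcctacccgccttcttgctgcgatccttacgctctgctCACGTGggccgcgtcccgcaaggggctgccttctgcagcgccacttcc

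Upstream sequences were found for 36 of the 42 members. Polr3gl held 1 E-box and 0 ETS cores or GC boxes, whereas Polr3g held 1 ETS core, 1 GC box and 0 E-boxes. Across the members, the ETS core CCGGAAG occurred in 11 of 36 upstream sequences (30.6%), namely Polr1c, Polr2f, Polr3b, Polr3g, Taf1a, Taf1c, Ttf1, Gtf3c1, Gtf3c2, Gtf3c6 and Bdp1. It occurred in 12.45% of the 11811 tested protein-coding genes with such a sequence and in 8.52% of all 20595 matched genes. The E-box CACGTG, a site that Myc and related factors can bind, was in 4 members (11.1%), namely Polr3c, Polr3gl, Rrn3 and Gtf3c6, against 7.97% of tested protein-coding genes. GC boxes GGGCGG were in 50% against 57.5%, the CCAAT box CCAAT in 27.8% against 35.97% and the TATA box TATAAA in 2.78%, which was Gtf3c6 alone, against 6.72%. Of the other 5 sequences searched, TGACGTCA was in 3 members, GCATGCGC in 2, AAGATGGCG in 1, and TGATTGGT and ACAATTCC in 0. Their shares among tested protein-coding genes were 2.59%, 4.15%, 0.974%, 2.66% and 1.202%. TGATTGGT contains the CCAAT box on its other strand. All were searched on both strands, and a match is a description of these letters alone.

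Divergent neighbours were counted in the GENCODE annotation. For 11 of 42 members (26.2%) another protein-coding gene started on the opposite strand within 1000 bases upstream, against 6.79% of all protein-coding genes and 9.44% of the 13442 with a mean count of at least 50. Such pairs included Polr1a with Ptcd3, Polr1c with Yipf3, Polr3a with the ribosomal protein gene Rps24, Polr3g with Mblac2, Gtf3c4 with Ddx31 and Maf1 with Sharpin. Counting by strand keeps the reads of such partners apart.

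Ubtf (chromosome 11, 102304560 to 102319742 on the minus strand) encodes UBF, which binds along ribosomal DNA and keeps it open for Pol I. Its values were 108, 106 and 111 CPM in WT and 114, 129 and 116 CPM in KO. The groups did not overlap, and KO library 2 was the highest. The log2 fold change was 0.14 ± 0.0549 (SE; adjusted p = 0.600, edgeR), with a 95% interval from 0.021 to 0.26, and it lay between 0.081, without KO library 2, and 0.18 when 1 library at a time was left out. Rrn3, the factor TIF-IA that makes Pol I competent to initiate, had 69.3, 66.0 and 72.0 CPM in WT and 73.6, 70.0 and 70.3 CPM in KO. Its log2 fold change was 0.045 ± 0.0513 (SE; adjusted p = 0.850, edgeR).

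SL1, the complex that places Pol I at the rRNA promoter, is built from the TATA-binding protein and the products of Taf1a, Taf1b, Taf1c and Taf1d. Taf1a had 14.9, 15.4 and 16.8 CPM in WT and 16.4, 18.6 and 15.6 CPM in KO. The groups overlapped, at a log2 fold change of 0.10 ± 0.0851 (SE; adjusted p = 0.795, edgeR). It was 0.026 without KO library 2. Taf1b had 22.6 to 23.6 CPM in WT and 20.7 to 23.8 CPM in KO. Taf1c was the most variable of the complex, with 10.4, 11.1 and 7.69 CPM in WT and 9.96, 11.4 and 10.9 CPM in KO, where WT library 3 was the lowest of all 6. Taf1d had 24.4 to 24.9 CPM in WT and 24.0 to 25.0 CPM in KO. The Taf1d gene hosts 8 small nucleolar RNAs on its own strand, and 10.1% of its exon bases are shared with other genes, where reads were left out. Ttf1, which binds the terminators of rRNA genes, had 18.5 to 19.3 CPM in WT and 16.6 to 18.8 CPM in KO, a log2 fold change of -0.083.

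Gtf3c1, the largest subunit of TFIIIC, the factor that reads the internal promoter of tRNA genes, had 214, 218 and 215 CPM in WT and 221, 241 and 226 CPM in KO. The groups did not overlap, and the log2 fold change was 0.088 ± 0.0442 (SE; adjusted p = 0.651, edgeR), with an interval from -0.0090 to 0.18. Without KO library 2 it was 0.051. Gtf3c4, a further TFIIIC subunit, also lay higher in each KO library, at 57.3 to 58.3 CPM in WT and 58.5 to 62.4 CPM in KO. Gtf3c3, of the same complex, lay lower in each KO library, at 48.3 to 49.2 CPM in WT and 45.5 to 47.8 CPM in KO, and its log2 fold change was -0.050. Gtf3c2, Gtf3c5 and Gtf3c6 had log2 fold changes of -0.021, 0.063 and -0.020 and overlapping groups, at 14.5, 16.3 and 26.7 TPM. Gtf3c2 shares 38.9% of its exon bases with Gm29609 on the same strand, and reads that fall in both genes were left out. Gtf3a, which encodes TFIIIA, the factor for the 5S rRNA gene, had 10.5 to 11.5 CPM in WT and 11.1 to 11.8 CPM in KO.

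Counting the members with no overlap between genotypes gave 4 higher in KO (9.52%), which were Polr1a, Ubtf, Gtf3c1 and Gtf3c4, and 1 lower (2.38%), which was Gtf3c3. Over all genes tested, 7.46% were separated in the higher and 6.97% in the lower direction, and among protein-coding genes 9.29% and 6.18%. The members' share of separations was therefore near that of other protein-coding genes in the higher direction.

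TFIIIB brings Pol III to its genes. Brf1, its subunit at tRNA and 5S genes, had 52.1, 49.3 and 50.6 CPM in WT and 49.5, 50.4 and 49.99 CPM in KO, a log2 fold change of -0.021 ± 0.0496 (SE; adjusted p = 0.942, edgeR). Brf2, which takes the place of Brf1 at genes such as U6, had 9.33 to 10.6 CPM in WT and 10.2 to 11.1 CPM in KO, a log2 fold change of 0.12 with overlapping groups. Per exon length, Brf1 stood at 2.13 ± 0.106 times the Brf2 level in WT and 1.93 ± 0.106 times in KO, with overlapping libraries. This ratio was chosen after the values had been seen. With the longest transcript as length it was 2.98 in WT and 2.71 in KO. Bdp1, the third component, had 104 to 113 CPM in WT and 96.1 to 118 CPM in KO, so its KO libraries spanned the whole WT range. Maf1, the repressor that binds Pol III when nutrients or growth signals fall, had 24.4, 28.5 and 27.0 CPM in WT and 25.7, 26.5 and 26.7 CPM in KO. Its log2 fold change was -0.016 ± 0.0680 (SE; adjusted p = 0.971, edgeR), with an interval from -0.17 to 0.13.

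The SNAPc complex recognises the upstream element of U6, 7SK and other small nuclear RNA genes and serves Pol II at some of them. Snapc4, its largest subunit, had 51.6, 53.7 and 44.2 CPM in WT and 54.9, 52.5 and 52.4 CPM in KO. WT library 3 stood below the other 5 libraries, the log2 fold change was 0.097 ± 0.0697 (SE; adjusted p = 0.761, edgeR), and it ranged from 0.019 to 0.15 when 1 library was left out, with 0.019 obtained without WT library 3. Snapc1, Snapc2, Snapc3 and Snapc5 had log2 fold changes of 0.013, -0.024, -0.020 and 0.034, all with overlapping groups. Their levels over 6 libraries were 23.0, 30.8, 28.5 and 31.1 TPM.

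**Figure D4:**
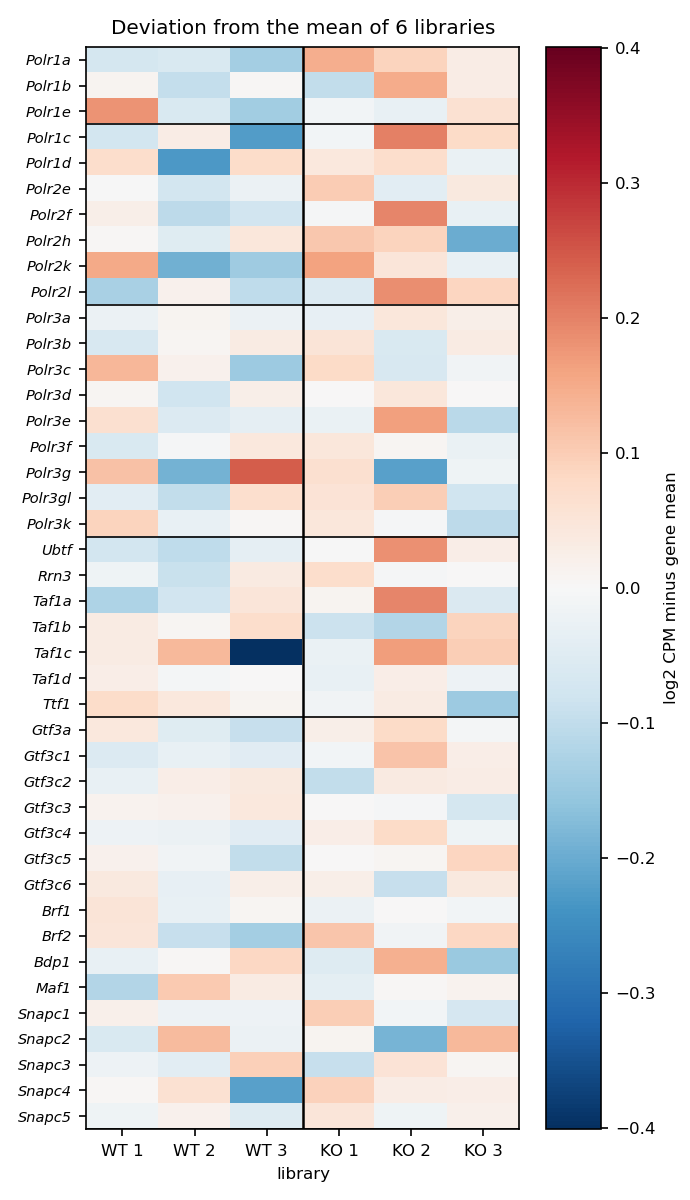
Deviation of each member (rows, grouped by role as in the text) from its mean over 6 libraries, in log2 CPM, for WT libraries 1 to 3 and KO libraries 1 to 3 (columns). The strongest single deviation is Taf1c in WT library 3, and no library is high or low across all members.

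The balance of the largest subunits was described with ratios chosen after the values had been seen. Per exon length, Polr1a stood at 0.513, 0.505 and 0.491 of the Polr3a level in WT and at 0.601, 0.546 and 0.533 in KO, without overlap. The corresponding ratio of the second-largest subunits, Polr1b to Polr3b, was 0.745 ± 0.0469 in WT and 0.767 ± 0.0974 in KO, with overlapping libraries. With the longest transcript as length this ratio was 1.02 in WT and 1.05 in KO, so which of both genes is higher depends on the length used. The ratio of Polr1a to Polr3a was then 0.537 in WT and 0.598 in KO. Within Pol III, Polr3a stood at 1.70 ± 0.0587 times the Polr3b level in WT and 1.71 ± 0.117 times in KO. These libraries overlapped as well. With the longest transcript as length the ratio of Polr3a to Polr3b was 1.93 in WT and 1.95 in KO.

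The other genes of these complexes were read from a separate list. Of Twistnb, Cd3eap and Znrd1 of Pol I, Crcp of Pol III and the TATA-binding protein gene Tbp, 0 passed the threshold and 0 had an unadjusted p-value under 0.05 in edgeR's test. Their log2 fold changes were -0.058, 0.010, 0.11, -0.024 and -0.0036 in that order, and of these Twistnb alone was separated, lower in each KO library. Tbp, which takes part in initiation by all 3 polymerases, had 46.3 ± 1.84 CPM in WT and 46.2 ± 0.842 CPM in KO. The 7 subunits specific to Pol II had a median log2 fold change of 0.085, with 5 positive, 2 (28.6%, Polr2c and Polr2g) separated higher in KO, 0 separated lower and 0 past the threshold, and Polr2c was higher without adjustment (log2 fold change 0.16 ± 0.0643, SE; adjusted p = 0.600, edgeR). Of 11 regulators of Pol I and Pol III, among them Myc, Mtor, Rptor, Rb1, Trp53, Baz2a and Sirt7, 0 passed the threshold or had an unadjusted p-value under 0.05, and the median was 0.032. Among these regulators 2 (18.2%), Sirt7 and Rptor, were separated higher in KO and 0 lower. The shares separated over all genes tested were 7.46% higher and 6.97% lower, and over tested protein-coding genes 9.29% and 6.18%.

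Products of the polymerases were measured only in part, since tRNAs are below the size cut. Rn7sk, the 7SK RNA made by Pol III, had 13425 ± 961 CPM in WT and 16049 ± 466 CPM in KO, a log2 fold change of 0.26 ± 0.0480 (SE; adjusted p = 0.542, edgeR), with each KO library above each WT library. Rn7s2, a copy of the 7SL gene, had 0.43 ± 0.169 (SE; adjusted p = 0.600, edgeR). The rRNA features Gm26917 and Gm42418 had 0.41 (SE 0.122) and 0.56 (SE 0.228), with adjusted p-values of 0.576 and 0.614 in edgeR's test and overlapping groups. These 4 RNAs had an unadjusted p-value under 0.05 and 0 passed after adjustment. The 3 Pol III transcripts under 200 bases that were tested had log2 fold changes of -0.61 for Rny1, -0.24 for Rny3 and 0.50 for Vaultrc5, and 0 of them had an unadjusted p-value under 0.05. The size of the negative values depended on WT library 1, which was the highest for both Rny1 and Rny3. Without it Rny1 stayed negative at -0.099 and Rny3 turned positive at 0.35, while without WT library 3 they had -0.95 and -0.53. Vaultrc5 had few counts, 7, 10 and 8 in WT and 14, 10 and 13 in KO, and the SE of its log2 fold change was 0.346. Without WT library 1 that log2 fold change was 0.33. Measures of read assignment also differed between genotypes without overlap. Of mapped reads, 4.61% to 5.16% in WT and 5.25% to 5.60% in KO mapped to several places. Reads that overlapped no annotated exon on the strand used were 50.3% to 52.2% in WT and 48.6% to 49.8% in KO. A further 0.784% to 0.808% in WT and 0.863% to 0.909% in KO fell in several genes. Their part in these results was not tested. Rmrp and Rpph1 are listed at 0 counts in every library.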

How the data were processed

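Each library's table holds whole-number read counts per gene, deposited by the authors without normalization. Per the submitters' processing notes, cutadapt 1.9.1 and STAR 2.7.0f were used. The genome build and annotation are not given in the sources used here, but the 55450 gene identifiers were exactly those of GENCODE M21 (GRCm38), which gave symbols, positions and exon lengths. The column of reads on the strand opposite to the first read was used, since it held 94.6% to 94.8% of stranded counts. Reads that map to several places or fall in several genes on that strand are not counted.

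The analysis ran in R 4.3.3. Low genes were removed with filterByExpr (edgeR 4.0.16), and counts were scaled with TMM factors and tested with its quasi-likelihood test (legacy mode, the installed default), with genotype as sole factor. All 6 libraries entered and p-values were adjusted by Benjamini-Hochberg over 21237 genes. SE is the size of the log2 fold change divided by the square root of F. The test was checked on simulated counts with 200 changed genes, where 36.4% of the calls made at a change of 0.25, 13.8% at 0.5 and 8.43% at 1 were false. CPM uses the TMM factors. P-values measure the spread between these 3 samples per group. Libraries of a group differed beyond sampling noise (chi-square per degree of freedom 4.40 to 9.50).

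The members and lists were chosen with earlier results of these data known. All members are named, and 1 gene of the list of other subunits is not reported here. Full statistics are given for the 2 members of each group with the smallest p-value and for Polr1a, Polr3a, Polr3g, Polr3gl, Ubtf, Rrn3, Brf1 and Maf1. Other values were chosen after they were seen. The 10 motifs and the divergent-gene window were also chosen after the expression values were seen. Alternatives were DESeq2 size factors or total counts for scaling, the unstranded column, no filter, a mean count of at least 50, DESeq2 1.42.0, limma-voom (limma 3.58.1), the revised edgeR mode, a replicate block and leaving out each library.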

Additional observations from a re-analysis of the deposited data

How the results depend on the processing

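The number of members past an adjusted p-value of 0.05 was 0 under all 15 alternatives, including DESeq2 and limma-voom. DESeq2 gave no adjusted p-value for some genes, among them Trmt1l, Polr1b, Polr1c, Polr2l, Polr3g, Polr3gl, Polr3k, Taf1a and Maf1. These could not pass there, whatever their change. The smallest adjusted p-value of a member was 0.188, for Polr1a without a filter on low counts. With the replicate block, 0 members passed and the median log2 fold change was 0.028. Same-numbered libraries share only a number, with correlations of their deviations across genes of 0.0402, -0.0314 and -0.0581. Over all genes, the 2 calls became 298 without a filter, 26 with DESeq2, 4 with the replicate block, 3 without KO library 1 and 5 without KO library 3. The count of 2 members without adjustment became 1 without WT library 1 and 4 without KO library 1, and ranged from 1 to 4 as single libraries were left out. The median log2 fold change of the members ranged from 0.020 to 0.046 over those fits, the highest without WT library 1. At least 36 of the 42 members kept the sign of their log2 fold change in every alternative, with 36 without WT library 2, KO library 1 or KO library 2, 38 without WT library 1 and 39 with the unstranded column or without KO library 3. Among members with full statistics, signs turned for 4: Polr1b was -0.0094 without KO library 2 (up to 0.11 without other single libraries), Polr3gl -0.0090 with the unstranded column, Brf1 0.0054 with that column and 0.00061 without WT library 1 (down to -0.040), and Maf1 0.035 without WT library 2 (down to -0.076). Without single libraries, Polr3a ranged from 0.0064 to 0.045, Polr3k from -0.077 to -0.00092, Polr3gl from 0.011 to 0.100 and Rrn3 from 0.014 to 0.076. The Polr3g to Polr3gl ratio was 0.205 in WT and 0.191 in KO with the unstranded column, and 0.165 and 0.148 with the longest transcript as length. The causes of these shifts were not tested. Leaving Rn7sk and the rRNA features out of the TPM scale, a choice made after seeing the data, raised all 5 group medians in WT, to between 18.2 and 35.3 TPM, with the Pol I-specific subunits still lowest. For 11 members the 95% interval passed 0.25 on at least 1 side: Polr1a, Polr1c, Polr1e, Polr2f, Polr2k, Polr2l, Polr3g, Ubtf, Taf1a, Taf1c and Brf2.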

Other observations

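Reads antisense to the annotated genes enter no comparison above. Among these, 15 of the 42 members had enough counts to test, and 0 passed an adjusted p-value of 0.05 with edgeR, beside 3 of all 10787 genes tested there. At an unadjusted p-value under 0.05 the count was also 0, and the smallest adjusted p-value was 0.939.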
